A study of Sus scrofa with 24 samples.

Results

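A set of 9 genes of the intestinal crypt was described in the gut of gestating sows. They are LGR5, ASCL2, OLFM4, SMOC2, AXIN2, RNF43, ZNRF3, SOX9 and EPHB2. They were taken by symbol from a table of 20674 genes, all 9 were present, and all 9 passed the filter on low counts. RNA of ileum and colon was sequenced on day 114 of gestation from sows that had been fed 1 of 4 diets since breeding. The HN diet held 7.46% crude fibre with 0.05% N-carbamylglutamate (NCG), an analogue of the urea-cycle activator N-acetylglutamate. The HF diet held 7.46% crude fibre without NCG, the LN diet 3.73% crude fibre with 0.05% NCG, and the LF diet 3.73% crude fibre without NCG. With 2 tissues and 4 diets there were 8 groups of 3 libraries, 24 in all, out of a trial with 100 sows per diet. The labels do not say whether the 3 libraries of a group are separate sows, so p-values measure only the spread between libraries. Nor do they say whether ileum and colon came from the same sows.

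The gut lining is renewed from stem cells at the base of the crypts, which in mice and humans carry LGR5, a receptor for R-spondins. R-spondins prolong Wnt signalling by removing RNF43 and ZNRF3, a pair of related ubiquitin ligases that clear Wnt receptors from the cell surface. AXIN2, RNF43 and ZNRF3 are themselves Wnt targets and close a negative feedback loop. Cells that leave the crypt base lose these genes step by step as they divide and mature.

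All 9 are protein-coding genes of the pig build Sscrofa11.1, and the coordinates in the deposited table are those of RefSeq. LGR5 lies at chr5:35463257-35595234 on the plus strand, ASCL2 at chr2:1558459-1560112 on the minus strand and OLFM4 at chr11:26252948-26375531 on the plus strand. SMOC2 lies at chr1:1193163-1332739, AXIN2 at chr12:12311293-12343207 and RNF43 at chr12:34631574-34695021, all on the minus strand. ZNRF3 lies at chr14:46092000-46241327 on the plus strand, SOX9 at chr12:8642154-8647315 on the minus strand and EPHB2 at chr6:80649098-80849979 on the plus strand. LGR5 overlaps TSPAN8 on the other strand by 19532 bases, and AXIN2 overlaps CEP112 on its own strand by 2925 bases. EPHB2 spans the 5831 bases of the long noncoding RNA LOC110261112, which was not analysed here. TSPAN8 had at most 0.399 CPM in colon and 0.725 CPM in ileum, and CEP112 at most 7.72 CPM in colon and 6.41 CPM in ileum. CPM is the TMM-normalised read count scaled to library size. Whether the authors counted by strand is not given in the sources used here.

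Totals lay between 11951729 and 19896941 counts per library. The tissue labels were set against region genes. HOXA13, a homeobox gene of the hindgut, had 33.5 to 75.6 CPM in colon and at most 0.0590 CPM in ileum. FABP6, the bile acid-binding protein of the terminal ileum, was above 500 CPM in only 3 of 12 ileum libraries, with 827 CPM in HN 2, 4262 CPM in HF 2 and 8419 CPM in LF 1. It had 0 to 38.0 CPM in the other 9 ileum libraries, which also had at most 0.745 CPM of the ileal bile acid transporter SLC10A2. Those 9 libraries were thus low in both of these markers of the terminal ileum. Their sum of mature enterocyte markers was 3739 to 17433 CPM, against at most 360 CPM in colon. The sum of 13 epithelium markers was 343 CPM in colon HN 1 and 166 CPM in colon LF 2, against 3322 to 15441 CPM in the other 10 colon libraries. The sum of 14 smooth muscle markers was 124689 CPM in colon HN 1 and 132678 CPM in colon LF 2. The library ileum LN 3 had 144 CPM over 18 cell cycle genes, against 512 to 1521 CPM in the other ileum libraries, and it had 1126 CPM of the fat cell hormone ADIPOQ. Its epithelium sum was 4119 CPM and its sum of mature enterocyte markers was 17433 CPM. These 3 libraries (colon HN 1, colon LF 2 and ileum LN 3) stand apart, and calls that change without them are given both ways. They were picked from marker sums after the data were seen. In tissue samples of this kind, fewer crypt cells and less RNA per crypt cell cannot be told apart.

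**Figure D1:**
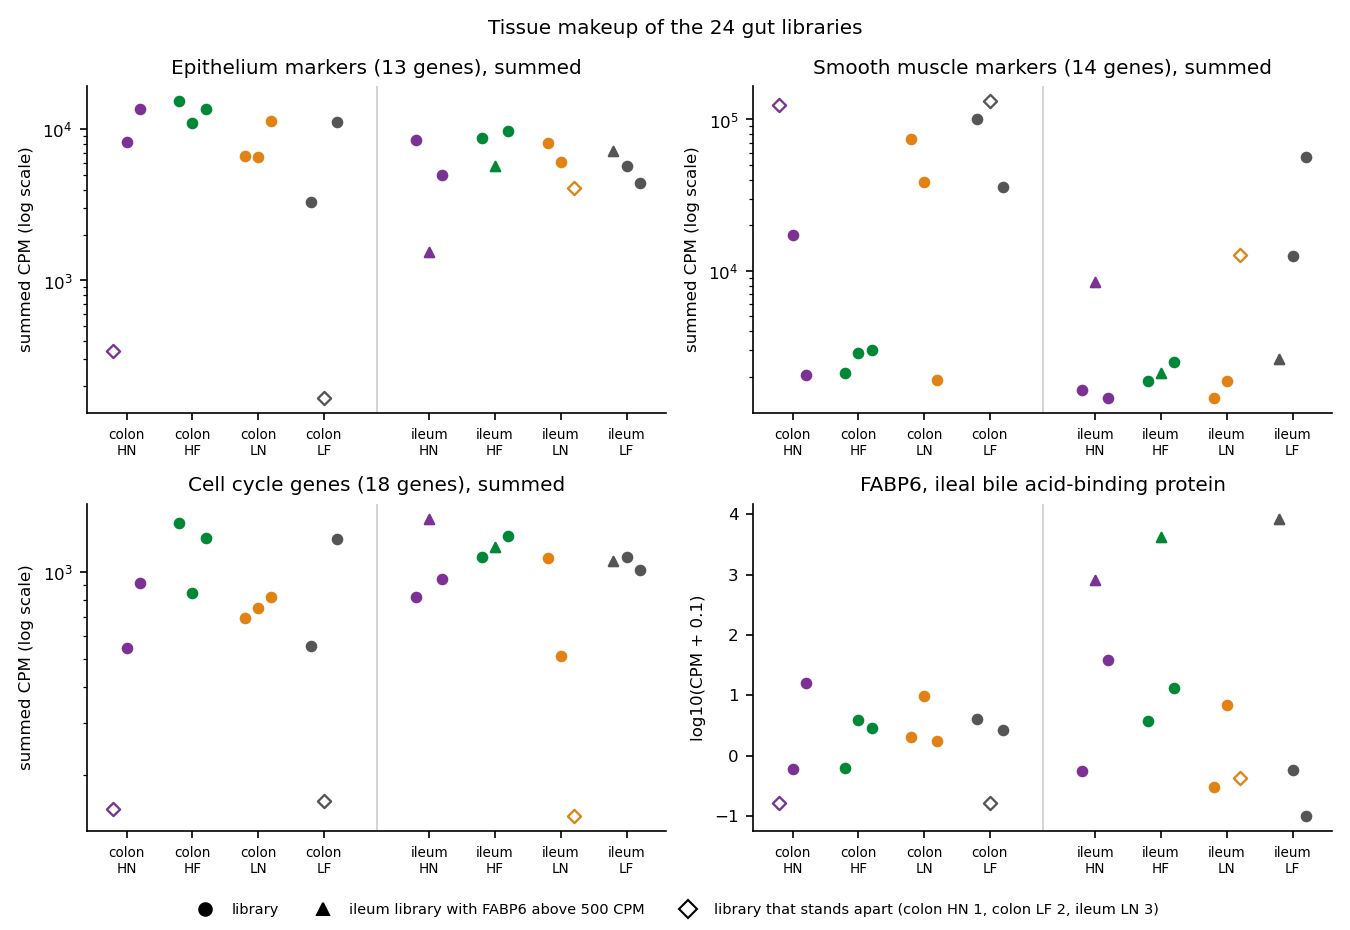
Sums of 13 epithelium, 14 smooth muscle and 18 cell cycle genes (CPM, log scales) and FABP6 (log10 of CPM + 0.1) in each of the 24 libraries, colon groups left of ileum groups. Diamonds mark the 3 libraries that stand apart and triangles the 3 ileum libraries with FABP6 above 500 CPM. The colon libraries HN 1 and LF 2 are lowest in epithelium markers, and ileum LN 3 is lowest in cell cycle genes.

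The members spanned a wide range of levels per gene length. Median RPKM (CPM divided by gene length in kilobases) was highest for OLFM4, with 689 in colon and 265 in ileum, and lowest for LGR5, with 1.19 in colon and 2.13 in ileum. Between these, RNF43 had 12 and 11.5 RPKM in colon and ileum, SOX9 had 10.7 in both, and AXIN2 had 9.48 and 8.12. EPHB2 had 8.40 and 4.39 RPKM in colon and ileum, SMOC2 had 5.91 and 31.3, ZNRF3 had 2.83 and 1.40, and ASCL2 had 2.46 and 3.22. When the 8 groups were ordered by mean, each pair of neighbours overlapped in its libraries, for all 9 genes. The colon and ileum libraries also overlapped for all 9, and 1.46% of the 15675 tested genes had tissues that did not overlap.

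LGR5, the R-spondin receptor that marks cycling crypt base stem cells in mice, was a low-level transcript in both tissues. In the colon LGR5 had 2.59, 9.17 and 4.26 CPM with HN, 6.77, 6.57 and 2.34 CPM with HF, 4.95, 5.67 and 6.53 CPM with LN, and 2.40, 1.54 and 3.30 CPM with LF. In the ileum it had 13.3, 5.47 and 9.67 CPM with HN, 8.29, 4.64 and 8.94 CPM with HF, 8.17, 9.50 and 0.194 CPM with LN, and 7.64, 9.73 and 5.76 CPM with LF. The low ileum value is LN 3, which held 3 LGR5 reads, while the other 11 ileum libraries had 4.64 CPM or more. The 3 colon LF libraries were among the lower colon values, although they overlapped the HN and HF libraries. Colon minus ileum was -0.76 ± 0.38 on the log2 scale (SE; edgeR adjusted p = 0.140). Without ileum LN 3 it was -0.90 with an adjusted p of 0.00965.

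ASCL2, a Wnt-driven transcription factor that maintains LGR5 cells in mice, was the other low-level stem cell gene. In the colon ASCL2 had 0, 2.93 and 3.58 CPM with HN, 5.0, 2.82 and 2.45 CPM with HF, 1.84, 0.818 and 2.65 CPM with LN, and 2.35, 0.336 and 5.19 CPM with LF. In the ileum ASCL2 had 2.81, 0.708 and 4.13 CPM with HN, 6.57, 2.13 and 5.31 CPM with HF, 3.89, 2.76 and 0 CPM with LN, and 2.34, 11.4 and 8.32 CPM with LF. The zeros were colon HN 1 and ileum LN 3, where a count of 0 allows up to 0.20 and 0.194 CPM, counting error only. Both belong to the libraries that stand apart. The tissues did not differ past the threshold (log2 difference colon minus ileum -0.62 ± 0.60, SE, adjusted p = 0.469).

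OLFM4, a secreted glycoprotein of the crypt base, was the most abundant of the 9 per gene length and spread over a wide range. In the colon OLFM4 had 54.0, 1966 and 4094 CPM with HN, 3731, 1897 and 7807 CPM with HF, 2349, 1414 and 2925 CPM with LN, and 1556, 78.3 and 3671 CPM with LF. In the ileum OLFM4 had 786, 182 and 1194 CPM with HN, 846, 813 and 1926 CPM with HF, 1511, 442 and 2.01 CPM with LN, and 513, 2241 and 967 CPM with LF. The 3 lowest values of the 24 were the 3 libraries that stand apart, and in ileum LN 3 OLFM4 was represented by 31 reads. The other 10 colon libraries had 1414 to 7807 CPM, while the other 11 ileum libraries had 182 to 2241 CPM. Colon minus ileum was 1.42 ± 0.71 on the log2 scale with all 24 libraries (SE; adjusted p = 0.144) and 1.58 ± 0.40 without those 3 (adjusted p = 0.00788).

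SMOC2, a matricellular calcium-binding protein of the mouse stem cell signature, was lower in colon than in ileum. In the colon SMOC2 had 7.45, 14.5 and 40.0 CPM with HN, 28.8, 46.9 and 21.9 CPM with HF, 21.2, 23.9 and 17.2 CPM with LN, and 23.1, 15.0 and 65.5 CPM with LF. In the ileum SMOC2 had 124, 26.2 and 134 CPM with HN, 116, 71.5 and 192 CPM with HF, 123, 72.5 and 17.7 CPM with LN, and 59.0, 154 and 173 CPM with LF. Ileum HN 2 and LN 3 fell within the colon range, as did LF 1, which lay below colon LF 3, and the remaining 9 ileum libraries lay above every colon library. The log2 difference colon minus ileum was -1.96 ± 0.38 (SE; edgeR adjusted p = 0.000918), with means of 27.1 ± 16.3 CPM in colon and 105 ± 55.8 CPM in ileum (SD, n = 12 each). Its size depended on which ileum libraries were used. Against only the 3 ileum libraries with FABP6 above 500 CPM it was -0.78 ± 0.48 (adjusted p = 0.306), and without those 3 it was -2.22 ± 0.36 (adjusted p = 0.000273). SMOC2 had 26.2 to 71.5 CPM in the 3 libraries high in FABP6, against a median of 124 CPM in the other 9. The 26.2 CPM belonged to HN 2, whose sum of epithelium markers was the lowest in ileum. That sum was 1542 CPM, against 4119 to 9726 CPM in those 9, so ileal site and makeup cannot be told apart there.

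AXIN2, a feedback gene of the Wnt pathway, encodes a scaffold of the complex that marks beta-catenin for destruction. In the colon AXIN2 had 19.9, 70.8 and 63.9 CPM with HN, 52.5, 47.2 and 60.4 CPM with HF, 41.4, 41.1 and 59.3 CPM with LN, and 33.8, 17.3 and 53.4 CPM with LF. In the ileum AXIN2 had 25.9, 26.5 and 50.3 CPM with HN, 46.6, 21.5 and 44.0 CPM with HF, 66.9, 41.3 and 23.2 CPM with LN, and 30.1, 75.5 and 49.0 CPM with LF. The lowest colon values were again HN 1 and LF 2. The log2 difference colon minus ileum was 0.16 ± 0.25 (SE; adjusted p = 0.660).

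RNF43 and ZNRF3, the paired ligases that remove Frizzled receptors, had opposite extremes in the colon. In the colon RNF43 had 8.11, 92.1 and 68.2 CPM with HN, 73.2, 85.3 and 62.5 CPM with HF, 38.2, 33.1 and 67.4 CPM with LN, and 27.0, 5.97 and 64.0 CPM with LF. In the ileum RNF43 had 67.8, 19.8 and 62.7 CPM with HN, 71.3, 47.1 and 67.1 CPM with HF, 81.5, 59.1 and 25.9 CPM with LN, and 41.1, 81.3 and 49.9 CPM with LF. RNF43 was thus lowest in colon HN 1 and LF 2 and, in the ileum, in HN 2 and LN 3. In the colon ZNRF3 had 52.7, 23.2 and 17.8 CPM with HN, 16.7, 21.2 and 16.4 CPM with HF, 34.9, 24.7 and 15.1 CPM with LN, and 54.1, 59.3 and 27.4 CPM with LF. In the ileum ZNRF3 had 7.34, 10.3 and 20.9 CPM with HN, 10.4, 12.4 and 11.2 CPM with HF, 19.0, 14.2 and 11.2 CPM with LN, and 11, 18.2 and 40.1 CPM with LF. The highest ZNRF3 values were colon LF 2, LF 1 and HN 1, the 3 colon libraries with the highest smooth muscle sums.

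ZNRF3 was higher in colon than in ileum, with a log2 difference of 0.93 ± 0.24 (SE; edgeR adjusted p = 0.00868). With the mean of the smooth muscle markers as a covariate, the ZNRF3 difference was 0.44 ± 0.24 (adjusted p = 0.211). For RNF43 the log2 difference colon minus ileum was -0.17 ± 0.36 (adjusted p = 0.766). It was 0.43 ± 0.37 with the same covariate (adjusted p = 0.445) and 0.01 ± 0.23 without the 3 libraries that stand apart (adjusted p = 0.978).

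SOX9 and EPHB2 mark a wider zone of the crypt. SOX9 is a transcription factor of stem and dividing cells, and EPHB2 is the Wnt-induced ephrin receptor that sorts cells along the crypt axis. In the colon SOX9 had 5.45, 56.9 and 42.7 CPM with HN, 52.3, 78.2 and 42.5 CPM with HF, 22.0, 32.9 and 43.9 CPM with LN, and 19.8, 3.56 and 35.1 CPM with LF. In the ileum SOX9 had 36, 29.5 and 80.4 CPM with HN, 41.0, 36.9 and 63.7 CPM with HF, 85.9, 58.8 and 5.89 CPM with LN, and 31.9, 80.5 and 33.4 CPM with LF. The 3 lowest SOX9 values were the 3 libraries that stand apart, and the tissues did not differ past the threshold (log2 difference colon minus ileum -0.53 ± 0.42, SE, adjusted p = 0.370). In the colon EPHB2 had 6.58, 86.3 and 153 CPM with HN, 104, 136 and 96.3 CPM with HF, 57.2, 60.9 and 95.5 CPM with LN, and 49.8, 12.5 and 129 CPM with LF. In the ileum EPHB2 had 43.7, 19.2 and 55.7 CPM with HN, 57.6, 49.8 and 46.6 CPM with HF, 57.5, 27.8 and 10.6 CPM with LN, and 37.7, 90.7 and 48.5 CPM with LF. Outside the libraries that stand apart EPHB2 had 49.8 to 153 CPM in colon, against 19.2 to 90.7 CPM in ileum. The EPHB2 difference colon minus ileum was 0.86 ± 0.41 with all 24 libraries (SE; adjusted p = 0.120), 1.02 without colon HN 1 (adjusted p = 0.0308) and 1.03 ± 0.24 without the 3 libraries (adjusted p = 0.00465), all on the log2 scale.

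**Figure D2:**
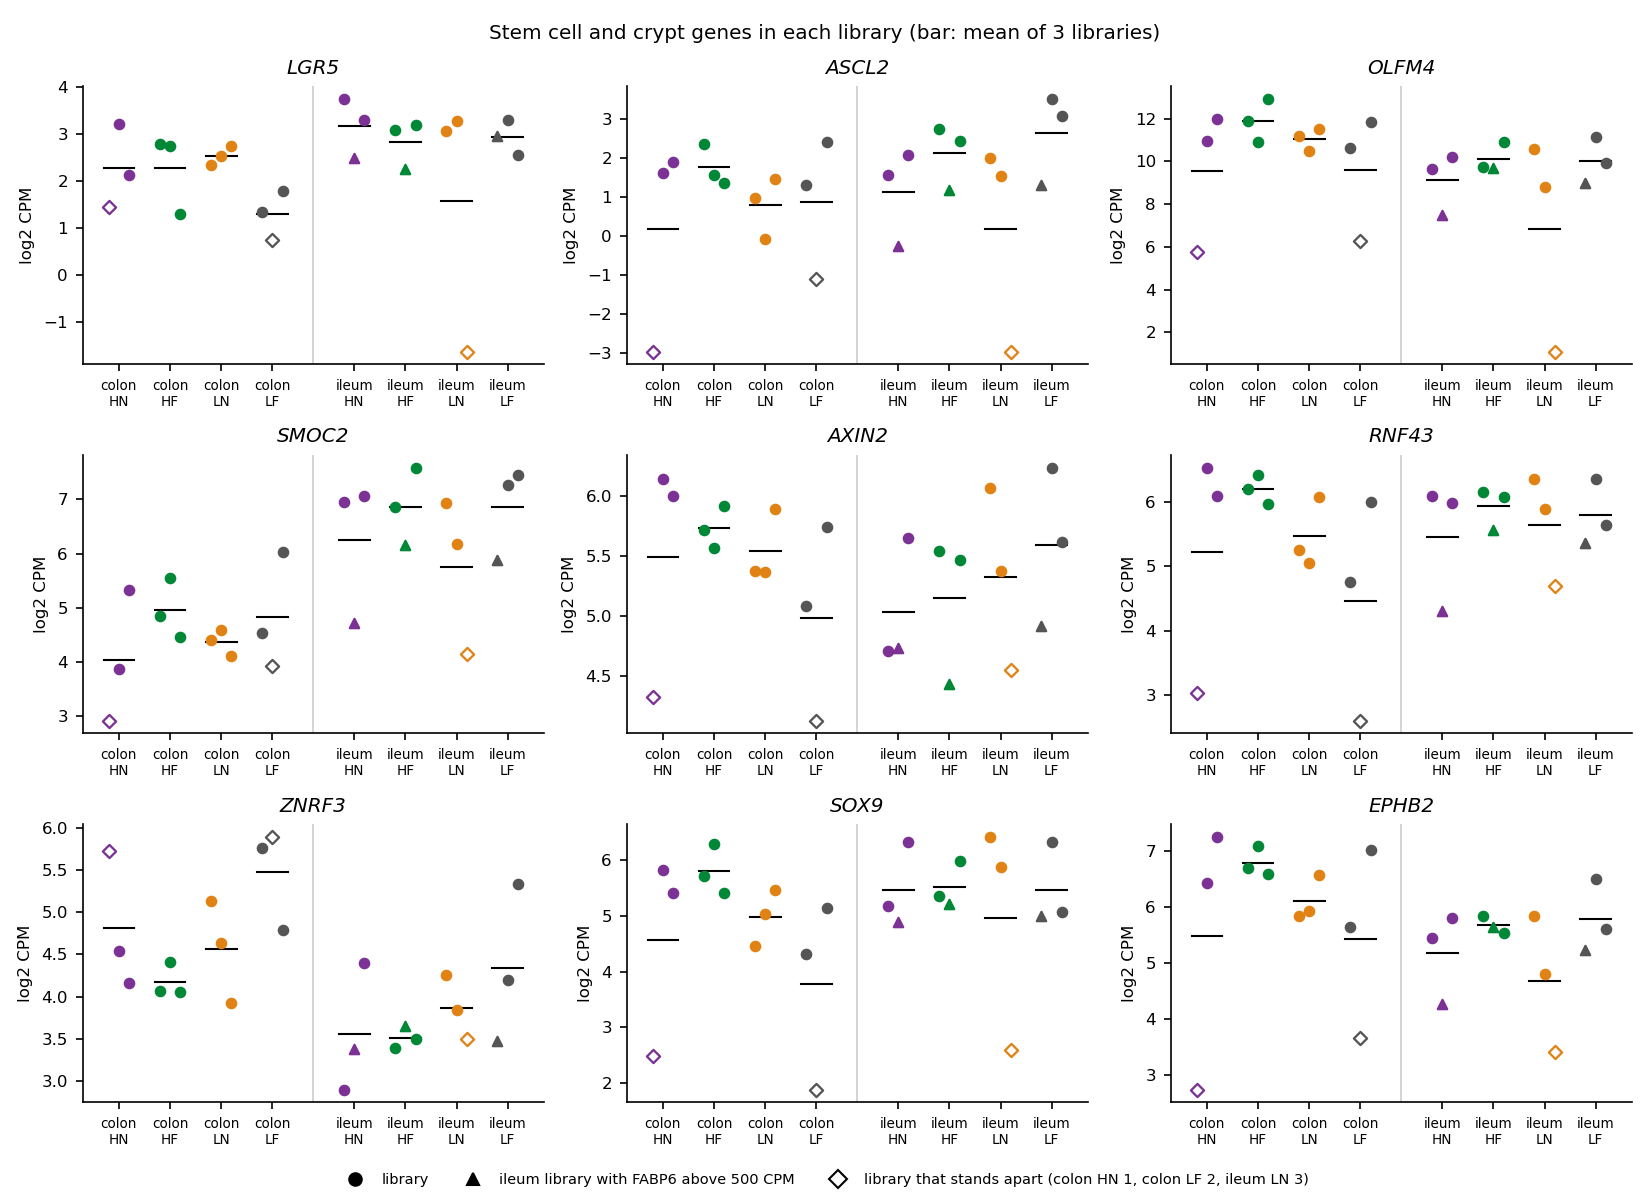
Level of each of the 9 genes (log2 CPM, prior count 2) in every library, by tissue and diet, with colon left of ileum and bars at the mean of 3 libraries. Symbols are as in the plot of tissue makeup. The diamonds are the lowest colon points for ASCL2, OLFM4, AXIN2, RNF43, SOX9 and EPHB2, and ZNRF3 is the one gene whose colon diamonds lie near the top.

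Ordered by group mean, the 8 groups of tissue and diet separated by tissue for 4 genes. The share of all genes whose group means separate by tissue was not counted. LGR5 and SMOC2 had their 4 colon means below their 4 ileum means, and OLFM4 and EPHB2 had their 4 colon means above. For LGR5 the lowest mean was 2.41 ± 0.877 CPM in colon LF and the highest 9.49 ± 3.93 CPM in ileum HN (SD, n = 3 in every group). SMOC2 was lowest in colon HN with 20.6 ± 17.1 CPM and highest in ileum LF with 129 ± 61.2 CPM. Colon HF held the highest mean of OLFM4 (4478 ± 3025 CPM), EPHB2 (112 ± 21.0 CPM), RNF43 (73.7 ± 11.4 CPM), SOX9 (57.7 ± 18.5 CPM) and AXIN2 (53.4 ± 6.65 CPM). The epithelium sum of that group was 11087 to 15441 CPM. Colon LF held the lowest mean of RNF43 (32.3 ± 29.4 CPM) and SOX9 (19.5 ± 15.8 CPM) and the highest of ZNRF3 (46.9 ± 17.1 CPM).

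In the comparison of tissues 2 of the 9 genes passed the threshold, ZNRF3 higher and SMOC2 lower in colon. Of all 15675 genes tested 28.4% passed, 12.5% higher and 15.9% lower. The members' share was therefore near that of all genes. The median log2 difference of the 9 was -0.17, against -0.03 over all tested genes. SMOC2 and ZNRF3 passed in all 24 fits that each left out 1 library. Without the 3 libraries that stand apart 5 genes passed, with LGR5 (-0.74, adjusted p = 0.0246) and SMOC2 (-1.87, adjusted p = 0.000845) lower in colon. OLFM4, EPHB2 and ZNRF3 were higher in that fit, ZNRF3 with 0.70 and an adjusted p of 0.0447, and 30.2% of all tested genes passed. With the smooth muscle covariate OLFM4 (2.65, adjusted p = 0.0357) and EPHB2 (1.58, adjusted p = 0.00651) were higher and SMOC2 (-1.46, adjusted p = 0.0228) was lower, beside 19.9% of all genes. With the epithelium covariate EPHB2, ZNRF3 and SMOC2 passed, beside 39.6%, and without the 3 ileum libraries high in FABP6 SMOC2 and ZNRF3 passed, beside 24.7%. With only the 3 ileum libraries high in FABP6, ZNRF3 alone of the 9 passed (1.43, adjusted p = 0.0401), beside 13.2% of all genes. The other 9 ileum libraries were low in FABP6 and SLC10A2, and their site along the small intestine was not tested. These differences are therefore between libraries labelled colon and libraries labelled ileum.

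**Figure D3:**
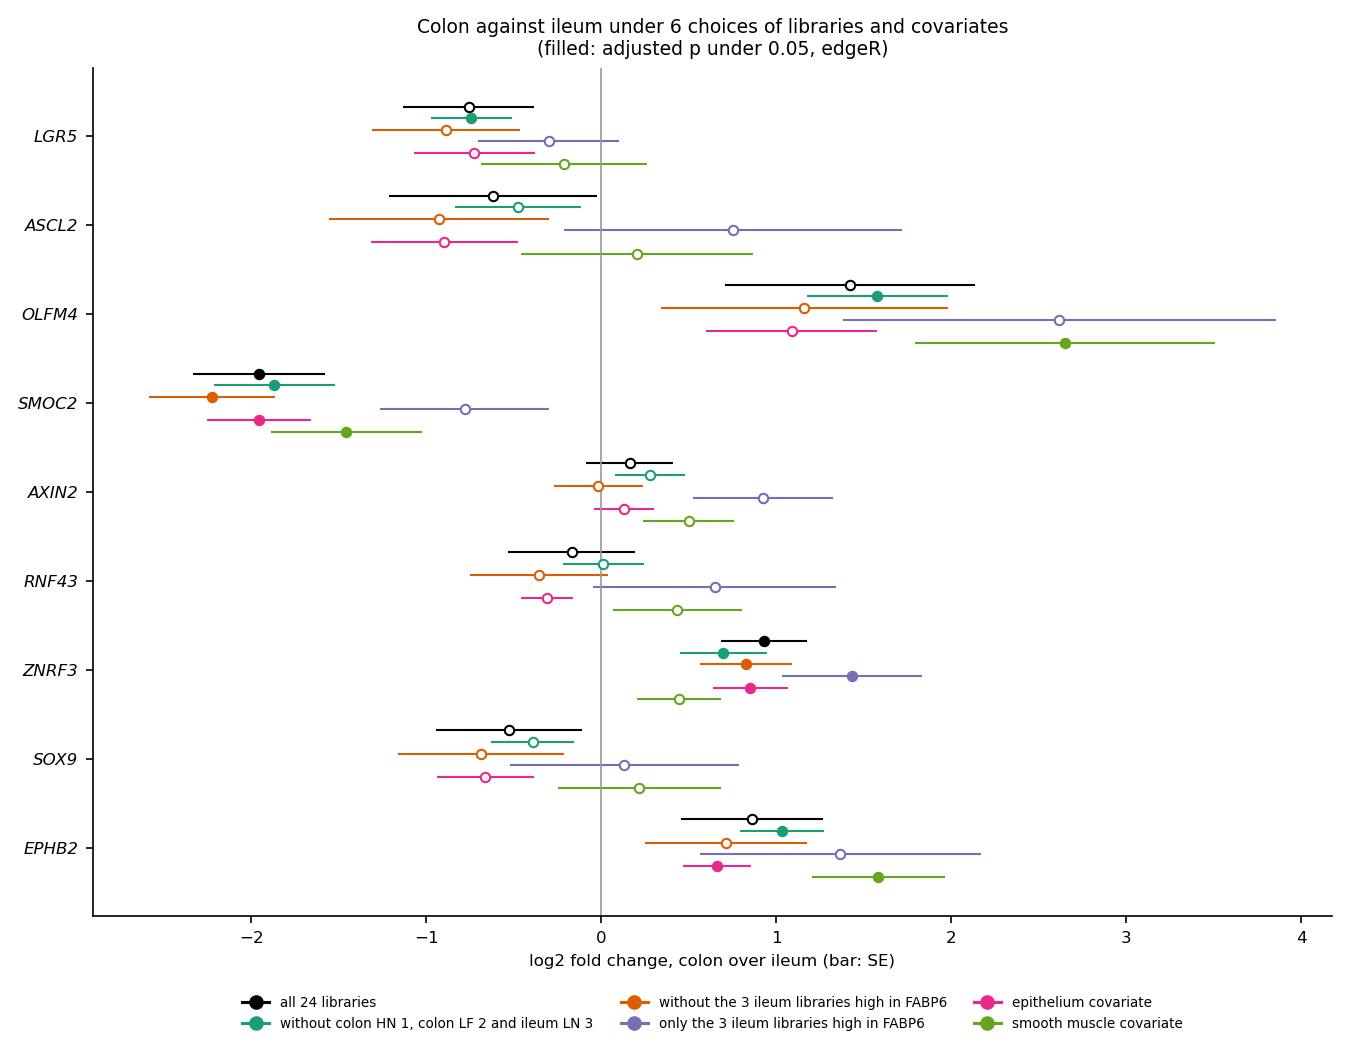
Log2 difference colon minus ileum (points, with SE bars) of the 9 genes under 6 choices of libraries and covariates. Filled points had an edgeR adjusted p under 0.05. SMOC2 lies below 0 throughout and is filled in all but the fit with only the 3 ileum libraries high in FABP6, and EPHB2, OLFM4 and ZNRF3 lie above 0 in all 6.

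EPHB2 followed the epithelium markers across the colon libraries. The 2 colon libraries lowest in epithelium form a separate cluster, so relations with the mean log2 CPM of the 13 epithelium markers were read over the other 10. There EPHB2 rose with them by Pearson's r (0.87, permutation adjusted p = 0.00774) and by Spearman's rho (0.84, adjusted p = 0.0434). ZNRF3 fell by r (-0.88, permutation adjusted p = 0.0268) but did not pass by rho (-0.66, adjusted p = 0.175). OLFM4 passed by rho (0.85, permutation adjusted p = 0.0434) but not by r (0.73, adjusted p = 0.0729). Without LF 1 and LN 2, the libraries farthest from the median of the markers, r was 0.76 for EPHB2, -0.73 for ZNRF3 and 0.63 for OLFM4. The adjustment covered 36 relations, for 9 genes, 2 marker lists and 2 tissues. The share of all tested genes that correlate with these markers was not counted. RNF43 had r = 0.80, AXIN2 0.72, SOX9 0.71, ASCL2 0.55, SMOC2 0.38 and LGR5 0.22, none past the threshold by r (adjusted p from 0.0547 to 0.656) or by rho (adjusted p from 0.149 to 0.923). In the ileum RNF43 and SMOC2 had r = 0.87 and 0.72 over 12 libraries (adjusted p = 0.00274 and 0.0312). Without HN 2 and LN 3, the ileum libraries farthest from that median, these were 0.44 and 0.08, so the size of both r values rests on those libraries. By rank over the 12 ileum libraries RNF43 passed (rho = 0.72, permutation adjusted p = 0.0275) and SMOC2 did not (rho = 0.45, adjusted p = 0.204). Over 11 ileum libraries, without LN 3, RNF43 had r = 0.86 (permutation adjusted p = 0.0547) and rho = 0.64 (adjusted p = 0.175).

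**Figure D4:**
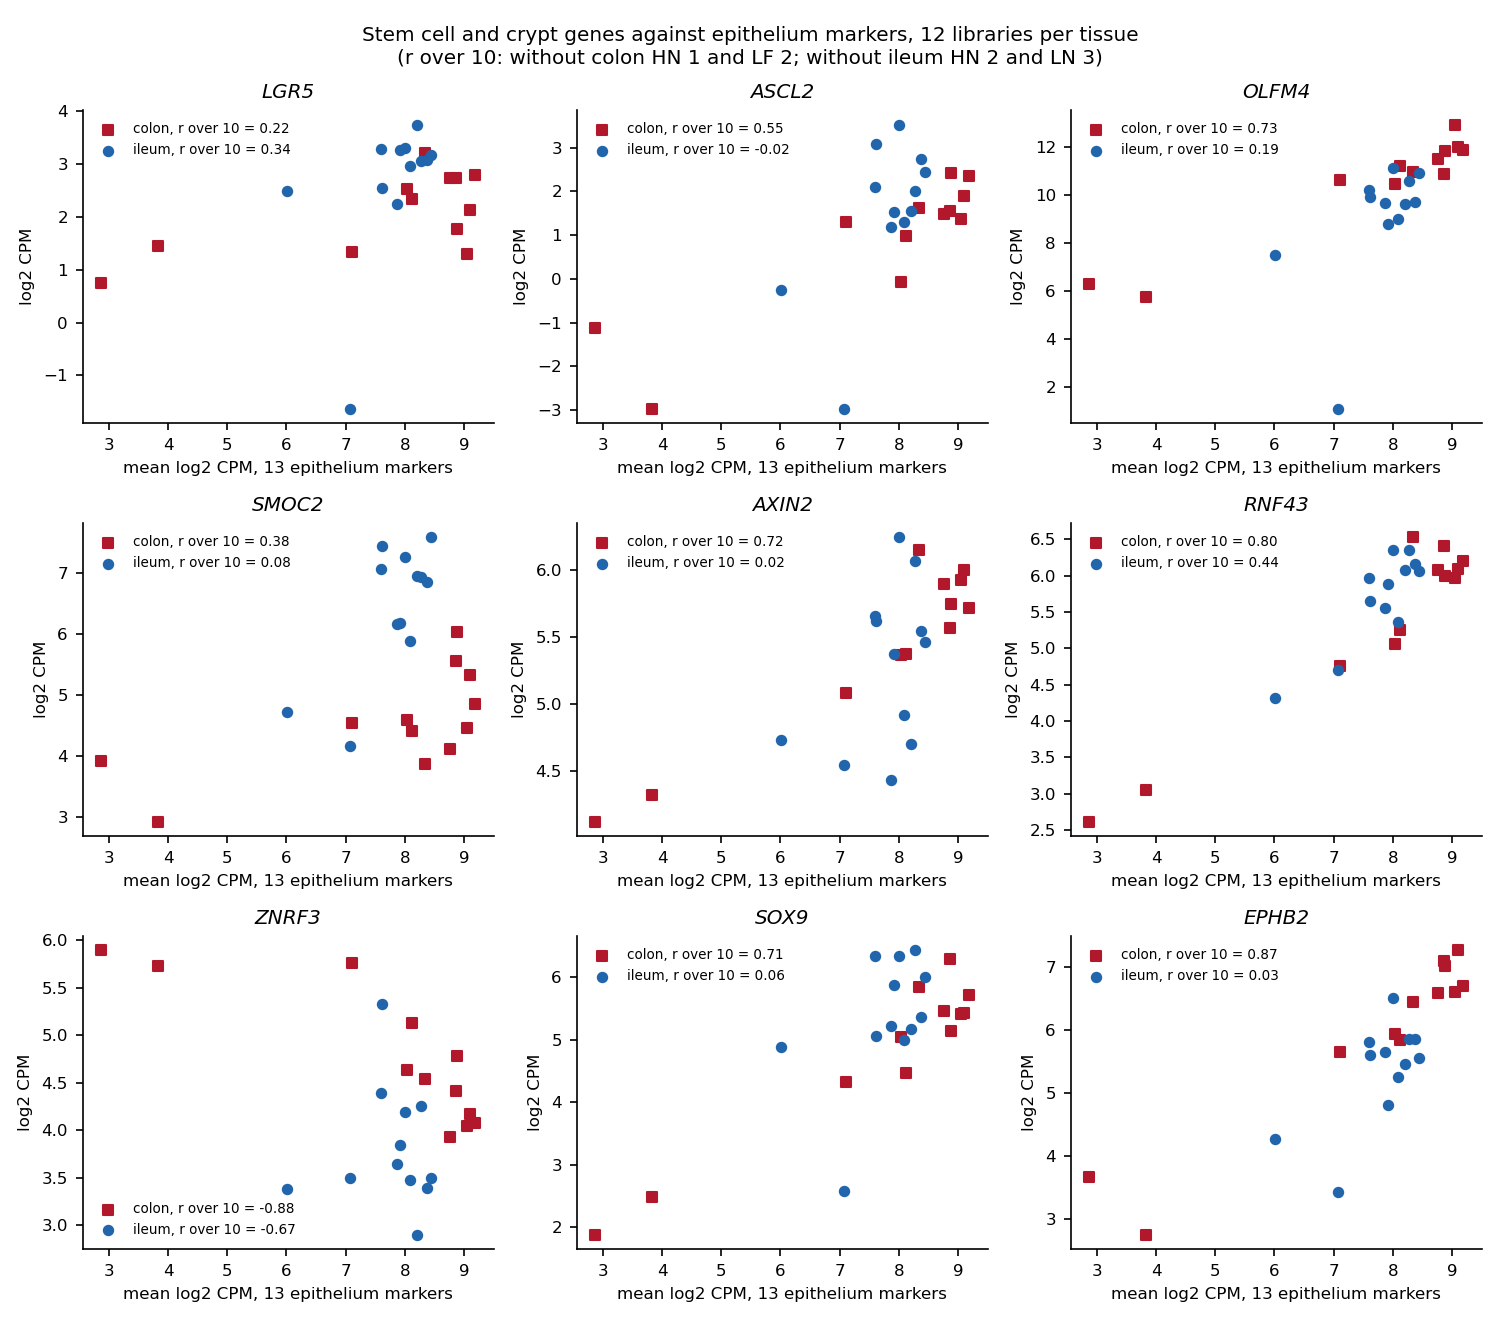
Level of each gene (log2 CPM) against the mean log2 CPM of 13 epithelium markers, 12 colon libraries (squares) and 12 ileum libraries (circles). Printed r values leave out colon HN 1 and LF 2, and ileum HN 2 and LN 3. Over the 10 colon libraries r ran from 0.22 for LGR5 to 0.87 for EPHB2, and it was -0.88 for ZNRF3.

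Smooth muscle markers fell into separate clusters in the colon. Their mean log2 CPM was 6.61 to 7.30 in 5 colon libraries (the 3 with HF, HN 3 and LN 3) and 9.68 to 12.6 in the other 7. Within those 7 libraries ZNRF3 rose with smooth muscle (r = 0.96, exact permutation p = 0.00198, adjusted over 9 genes 0.00833; rho = 0.93). AXIN2 (r = -0.92), SOX9 (-0.90), RNF43 (-0.89) and LGR5 (-0.88) fell, with exact permutation p-values adjusted over 9 genes of 0.00833, 0.00833, 0.0103 and 0.0214. EPHB2 had r = -0.78, OLFM4 -0.70, ASCL2 -0.63 and SMOC2 -0.39, none past the threshold by r after adjustment. By rank EPHB2 had rho = -0.93 (exact permutation p = 0.00675), ASCL2 -0.79 (0.0480), OLFM4 -0.71 (0.0881) and SMOC2 -0.36 (0.444). These rank p-values were not adjusted. These 7 libraries include HN 1 and LF 2, and the 5 left without them are too few for a correlation. Epithelium and smooth muscle levels come from the same libraries, so the relations with the 2 lists are not independent. The share of all tested genes that correlate with smooth muscle markers was not counted either. Over 10 colon libraries, without HN 1 and LF 2, ZNRF3 had r = 0.91 with smooth muscle (adjusted p = 0.00036, permutation). Over the same 10 libraries r was -0.65 for AXIN2 (adjusted p = 0.114), -0.76 for SOX9 (0.0547), -0.73 for RNF43 (0.0729) and -0.27 for LGR5 (0.540), so none of these 4 passed there. The unadjusted p of ZNRF3, 1e-05, is the smallest that 100000 resamples can give.

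**Figure D5:**
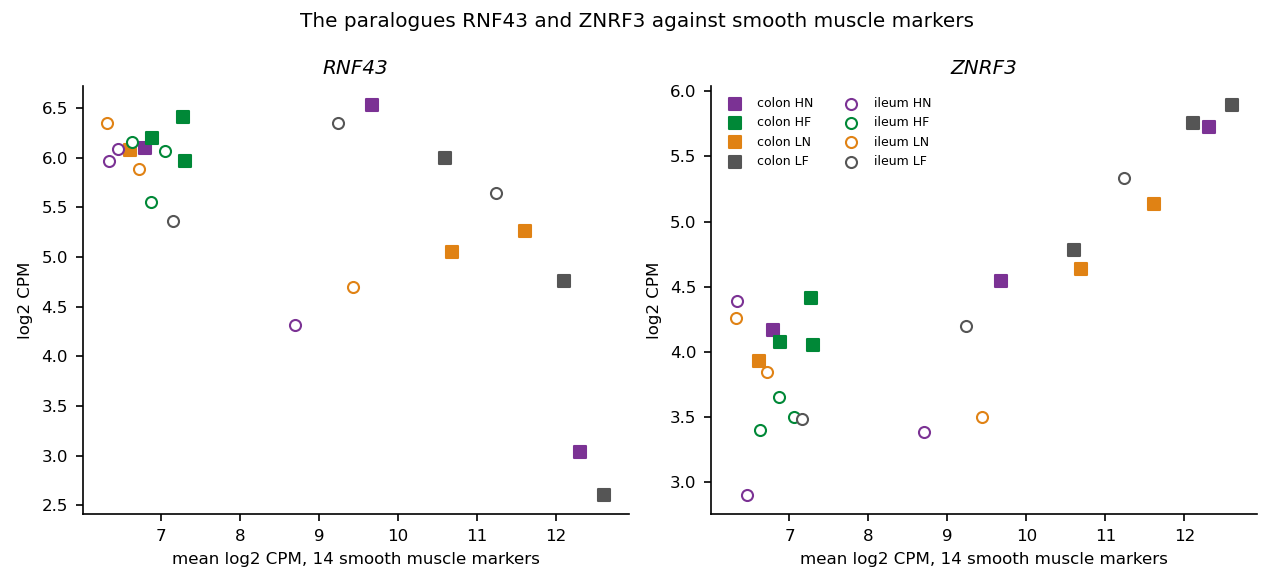
RNF43 and ZNRF3 (log2 CPM) against the mean log2 CPM of 14 smooth muscle markers, with filled squares for colon and open circles for ileum, coloured by diet. Among the 7 colon libraries with marker means from 9.68 to 12.6, ZNRF3 climbs (r = 0.96) and RNF43 falls (r = -0.89).

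None of the 9 genes passed the threshold in any diet comparison. Within each tissue the comparisons were NCG, fibre, their interaction, HN against HF, HN against LN, and HN, HF and LN each against LF, 16 in all. The differences of the NCG effect and of the fibre effect between colon and ileum gave 0 of 9 as well, so 18 comparisons had none with edgeR, and the same 18 had none with DESeq2. Over all genes 5.85% passed for NCG in ileum, 4.34% for LN against LF, 1.88% for HN against LF and 0.00662% for HN against LN. The share was 0 in the other 4 ileum comparisons, in all 8 colon comparisons and in both tissue differences. Of the 144 single tests of a member with diet, 3 had an unadjusted p under 0.05. Log2 differences ran from -1.73 to 1.71 with SEs from 0.321 to 1.92, so a change of the size between the tissues could be missed.

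All 3 of those tests were in the colon, where the diets also differed in makeup. ZNRF3 was lower with HF than with LF by a log2 difference of -1.39 ± 0.46 (SE, unadjusted p = 0.0129, adjusted p = 0.205), with 18.1 ± 2.66 CPM in HF and 46.9 ± 17.1 CPM in LF (SD, n = 3 each). Every HF library lay below every LF library, and how many of all genes separated in this way was not counted. The smooth muscle sum was 2118 to 3020 CPM with HF and 35932 to 132678 CPM with LF, so diet and makeup cannot be told apart there. With the smooth muscle mean as a covariate the ZNRF3 difference was -0.05 ± 0.30, and with the epithelium mean it was -0.72 ± 0.32. The interaction of fibre and NCG for ZNRF3 was 1.71 ± 0.65 (unadjusted p = 0.0239, adjusted p = 0.327), and 0.31 ± 0.37 with the smooth muscle covariate. Without colon HN 1 and LF 2 the interaction was 0.89 ± 0.53 (adjusted p = 0.851). LGR5 was higher with LN than with LF by 1.25 ± 0.54 (unadjusted p = 0.0420, adjusted p = 0.359), with 5.72 ± 0.793 CPM in LN and 2.41 ± 0.877 CPM in LF. These libraries did not overlap, and here too the share of all genes without overlap was not counted. With the smooth muscle covariate the LGR5 value was 1.02 ± 0.56. At an unadjusted p under 0.05 the background was 20.4% of all genes for HF against LF, 15% for the interaction and 13.3% for LN against LF, all in colon.

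In the ileum 8 of the 9 genes had a negative log2 difference for NCG, with a median of -0.27, against -0.07 over all genes. The smallest adjusted p was 0.370, and ileum LN 3 is 1 of the 6 libraries with NCG. For fibre in colon 7 of the 9 were positive, with a median of 0.50, against 0.00 over all genes, and the smallest adjusted p was 0.836. The 2 colon libraries low in epithelium lie on opposite sides of that comparison, HN 1 with high fibre and LF 2 with low fibre. The shares of all genes with a negative or positive sign were not counted. Most of the 9 genes also vary together across libraries, so their signs are not separate observations.

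Other genes of the stem cell niche were counted from lists of known members. Of 20 tested stem and crypt genes 3 were higher in colon and 4 were lower. Their median log2 difference was -0.29, against -0.03 over all tested genes. Of all 15675 genes tested 12.5% were higher and 15.9% lower, the shares to set beside each list count here and below. EFNB2, an ephrin ligand for EPHB2, averaged 25.2 ± 6.29 CPM in colon and 12.7 ± 2.24 CPM in ileum (SD, n = 12 each; log2 difference 0.97 ± 0.13, SE, adjusted p = 2.05e-05). LRIG1, a restraint on EGF receptors, and PROM1, a membrane glycoprotein, were higher by 0.84 and 0.78 (adjusted p = 0.0181 and 0.0210). Their differences were 0.18 and 0.11 with the smooth muscle covariate, where EFNB2 had 1.11. MSI1, an RNA-binding protein of progenitor cells, and MYC, a Wnt target, were lower in colon by -1.28 and -0.44 (adjusted p = 0.0119 and 0.0273). NOTUM, a secreted Wnt inactivator, was also called lower, near the detection limit at 0.177 ± 0.233 CPM in colon and 0.702 ± 0.752 CPM in ileum.

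Among the ligands and receptors, 1 of 11 Wnt ligand and secretion genes was higher in colon and 1 was lower. Of all genes 12.5% were higher and 15.9% lower. WNT5A, a ligand of the noncanonical branch, averaged 29.7 ± 6.30 CPM in colon and 18.2 ± 6.69 CPM in ileum (SD, n = 12 each; log2 difference 0.73, adjusted p = 0.00389). WNT9B was called lower, near the detection limit at 0.118 ± 0.0842 CPM in colon and 0.666 ± 0.826 CPM in ileum. Of 5 R-spondin genes and receptors 1 was called, LGR6, also near that limit at 0.447 ± 0.385 CPM in colon and 0.135 ± 0.161 CPM in ileum. Of 14 Wnt receptors 4 were higher, among them FZD6 (0.59), ROR2 (1.16) and ROR1 (0.63), and 2 were lower, FZD3 (-1.08) and FZD10. FZD10 was near the detection limit too, with 0.205 ± 0.160 CPM in colon and 0.682 ± 0.557 CPM in ileum. With the smooth muscle covariate ROR2 had 0.04 and ROR1 0.15, while FZD3 had -0.91. FZD3 turned to 0.14 against only the 3 ileum libraries high in FABP6 (adjusted p = 0.822). Of 8 secreted antagonists DKK3 (1.76) and SFRP2 (1.98) were higher and SFRP1 (-1.02) was lower, with 42.4 ± 15.5 CPM in colon and 84.2 ± 22.7 CPM in ileum. In the fit with the covariate DKK3 had 0.63, SFRP2 0.93 and SFRP1 -1.01. Values in these sentences without a unit are log2 differences colon minus ileum.

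Inside the cell, 2 of 18 genes of the destruction complex and its nuclear partners were higher in colon and 3 were lower. Of all genes 12.5% were higher and 15.9% lower. TCF7L2, the main partner of beta-catenin in gut epithelium, was higher by 0.51 (adjusted p = 0.0147), and BCL9, a co-activator, by 0.58 (0.0402). With the smooth muscle covariate BCL9 had 0.06 (adjusted p = 0.764). TCF7 (-1.44, adjusted p = 0.0289) and LEF1 (-1.23, 0.0319), which T cells also express, were lower. So were 2 of 8 T and NK cell markers, CD8B and CD3D, whose part in this was not tested. CD3D lost its call in 16 of the 24 fits that each left out 1 library. APC, the scaffold lost in most colorectal tumours, was lower by -0.73 (adjusted p = 0.0310). No gene of 12 in the Notch pathway was called with all 24 libraries. Without the 3 libraries that stand apart 4 were higher and 1 lower, beside 30.2% of all genes. The epithelium covariate gave 3 higher and 3 lower (39.6% of all genes), and the smooth muscle covariate 2 and 2 (19.9%). Leaving out the 3 ileum libraries high in FABP6 gave none, and keeping only those gave 1 higher (13.2%). With all 24 libraries 4 of 15 BMP pathway genes were higher and none lower, including BMP4 (0.52), the receptor BMPR2 (0.37) and the antagonist NOG (1.26). Of 10 EGF family genes EGFR (0.99, adjusted p = 0.000262) and its ligand AREG (1.81, adjusted p = 0.0323) were higher in colon. EGFR averaged 89.9 ± 30.1 CPM in colon and 45.4 ± 16.4 CPM in ileum (SD, n = 12 each). None of 18 cell cycle genes was called between the tissues with all 24 libraries. Their median log2 difference was -0.30, against -0.03 over all tested genes. Without the 3 libraries that stand apart 1 was lower, beside 30.2% of all genes, and with the epithelium covariate 6 were, beside 39.6%.

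Many of these calls between tissues depended on the libraries and covariates used, and NOTUM, WNT9B, LGR6 and FZD10 lie near the detection limit. Of the 27 niche and signalling genes named above as called, 20 were still called without the 3 libraries that stand apart. The other 7 were LRIG1 (0.57, adjusted p = 0.0668), PROM1 (0.58, 0.0552), ROR2 (0.69, 0.135), ROR1 (0.46, 0.0952), FZD10 (-1.58, 0.0617), BCL9 (0.47, 0.0718) and LEF1 (-1.14, 0.0668). With the smooth muscle covariate 12 of the 27 were called. In addition to those of LRIG1, PROM1, ROR1, ROR2, SFRP2 and BCL9, that covariate ended the calls of MSI1 (-0.73, adjusted p = 0.183), MYC (-0.20, 0.324), FZD6 (0.25, 0.261), TCF7 (-0.68, 0.390) and LEF1 (-0.87, 0.242). It also ended those of NOG (1.03, adjusted p = 0.0867), BMPR2 (0.30, 0.0576), LGR6 (1.47, 0.0869) and FZD10 (-1.88, 0.0671). With the epithelium covariate all 27 were called. Without the 3 ileum libraries high in FABP6, 16 were called, and TCF7 (-0.76, adjusted p = 0.235), LEF1 (-0.29, 0.488) and APC (-0.54, 0.150) were among the 11 that were not. Against only those 3 libraries 7 of 26 fitted genes were called.

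Across diets, calls in the signalling lists came from the ileum alone, in 2 of the 18 comparisons. With NCG in ileum LRP6, the Wnt co-receptor, was higher by a log2 difference of 1.29 ± 0.27 (SE, adjusted p = 0.0178), APC by 1.59 ± 0.31 (adjusted p = 0.0122) and BMPR1A, a BMP receptor, by 1.04 ± 0.26 (adjusted p = 0.0406). For LN against LF in ileum LRP6 had 1.96 ± 0.39 (adjusted p = 0.0170) and APC 2.14 ± 0.44 (adjusted p = 0.0214). These were 1 of 14 Wnt receptors, 1 of 18 destruction complex genes and 1 of 15 BMP genes tested for NCG. No other list held a call for NCG. Over all genes 5.85% were called for NCG and 4.34% for LN against LF. When 1 library at a time was left out, BMPR1A lost its call for NCG in 10 of 12 fits (adjusted p up to 0.115) and LRP6 in 3 (up to 0.0617, without HF 1, HF 3 or LF 2), while APC kept it in all 12 (up to 0.0446). For LN against LF, LRP6 lost its call without each of the 3 LF libraries (up to 0.0836) and APC without LN 3, LF 2 or LF 3 (up to 0.0996). Without LN 3, the ileum library that stands apart, LRP6 had 0.91 for NCG and 1.20 for LN against LF (adjusted p = 0.00262 and 0.00961), APC had 1.30 and 1.57 (0.0176 and 0.0676), and BMPR1A had 0.87 for NCG (0.0889). With the epithelium covariate the calls for NCG of LRP6 (1.07, adjusted p = 0.0606) and BMPR1A (1.04, 0.0791) were lost. Without the 3 libraries high in FABP6, LRP6 had 1.33 for NCG (adjusted p = 0.102) and 1.94 for LN against LF (0.0878), and BMPR1A had 0.98 (0.119). None of the 9 crypt genes passed the threshold in the same comparisons, and 9 genes are too few to tell 0 from shares of 5.85% and 4.34%.

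Tested genes were ranked by likeness to each member, leaving out the other members and genes named only by a LOC number. Among the genes kept, those most like each member over the 24 libraries were found by Pearson r after the mean of each tissue was removed. For LGR5 these were EDIL3, RALGAPB and SLC1A2 (r = 0.89, 0.89 and 0.88), and for ASCL2 SDF2L1, TWNK and CFB (0.95, 0.94 and 0.93). OLFM4 was followed by IQGAP3, MYCL and BHLHA15 (all 0.96), and SMOC2 by SRPRB, LRRC59 and PDIA4 (0.93, 0.91 and 0.91). Nearest to AXIN2 among the genes kept were INSM1, KCNK1 and RGL2 (0.92, 0.89 and 0.89), and to RNF43 SPINT2, VILL and CASP6 (all 0.97). ZNRF3 had FAM110B, GPSM1 and PTGFRN (0.93, 0.92 and 0.92). SOX9 had ATP2C2, C15H2orf72 and KCNN4 (0.96, 0.95 and 0.94), and EPHB2 had SLC17A9, TSEN54 and C7H6orf223 (all 0.96). These values describe libraries that share depth and tissue makeup.

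Between the members themselves all 28 pairs without ZNRF3 had a positive r over the 24 libraries, from 0.51 for LGR5 with AXIN2 to 0.92 for ASCL2 with OLFM4, with a median of 0.78. Of the 8 pairs with ZNRF3, 1 was positive, and r ran from -0.50 with RNF43 to 0.02 with SMOC2. Over the 21 libraries that do not stand apart the 28 pairs had a median r of 0.64 and a range of -0.01 to 0.81, highest for RNF43 with EPHB2. The 8 pairs with ZNRF3 then had a median of -0.04. How many pairs of all tested genes have a positive r was not counted. Among the 100 genes most like each member over the 24 libraries, few were other members. There were 2 for LGR5, ASCL2, AXIN2 and SOX9, 1 for OLFM4, SMOC2 and EPHB2, and 0 for RNF43 and ZNRF3.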

How the data were processed

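Poly(A) RNA of ileum and colon was captured on oligo(dT) beads and read from both ends, per the labels' protocols. The submitters' processing notes list HTSeq 0.9.1, HISAT2 2.1.0 and fastp 0.22.0 and the build Sscrofa11.1, and the settings are not given in the sources used here. The values tested were the deposited counts, whole reads per gene that the authors had not normalised. FPKM values deposited by the authors equal those computed from the counts within a relative 2.10e-07 and were not used. Gene length, in bases per the file headers, was used for RPKM.

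Counts were tested in R 4.3.3 with edgeR 4.0.16 (filterByExpr, TMM, quasi-likelihood F-test). Each tissue had 12 libraries and 4 diet means, and the tissue comparisons used 24 libraries and 8 group means. Adjusted p-values are Benjamini-Hochberg values over all tested genes with a threshold of 0.05. An average effect is the mean of the effects at both levels of the other factor. A count of 0 was taken to allow up to 3 counts, or 0.143 to 0.279 CPM across libraries after TMM scaling. The common dispersion had a square root of 0.472 in colon and 0.461 in ileum. Correlations used 100000 permutations (numpy 2.4.6), two-sided, or exact enumeration for 7 libraries.

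All 9 genes are described by level, with a test value in colon against ileum and wherever the unadjusted p was under 0.05. From each list up to 3 called genes per direction with the smallest adjusted p are named. The members and lists were chosen with earlier results of these data known, so no p is adjusted over a list alone. Alternatives were RLE size factors, no filter, DESeq2 1.42.0, a replicate block, marker covariates, left-out libraries and a fit of all 24 libraries. Settings that leave out or keep libraries by their markers, apart from leaving out those high in FABP6, were added after seeing the data. The scripts were tested on simulated data. RefSeq names were matched by gene ID for all 20674 genes.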

Additional observations from a re-analysis of the deposited data

How the results depend on the processing

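The main number of the 9 genes called was 0 in 18 of the 19 comparisons, where an alternative value that stayed was again 0. Over the 19 comparisons 423 alternative values stayed within 1.5 times the main number and 2 moved further. Those were colon against ileum without colon HN 1, colon LF 2 and ileum LN 3, with 5 genes called, and with only the 3 ileum libraries high in FABP6, with 1, against 2 with all libraries. With 1 library left out at a time this number was 2 to 3. With a replicate block it was 2, with SMOC2 at -1.98 (adjusted p = 0.00139) and ZNRF3 at 0.91 (adjusted p = 0.0191), and the block changed no call of a member. Libraries with the same number correlated from -0.52 to 0.70 in ileum and from -0.50 to 0.81 in colon in their deviations from the group means. The medians were 0.053 and -0.040, against -0.005 in ileum and 0.032 in colon for libraries with other numbers. Between colon and ileum on the same diet the median was 0.052 for the same number and -0.066 for other numbers. These ranges are too wide to decide whether the numbers pair the libraries.

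In colon against ileum these log2 differences turned round, none of them called: with the smooth muscle covariate ASCL2 0.20, RNF43 0.43, SOX9 0.22 and the muscle gene CNN1 -0.0777; without the 3 ileum libraries high in FABP6 AXIN2 -0.0155; without the 3 libraries that stand apart RNF43 0.0122; and with only the 3 libraries high in FABP6 ASCL2 0.75, RNF43 0.65, SOX9 0.13 and FZD3 0.14. The cause was not tested.

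Over all 12 libraries of a tissue 9 genes were correlated with epithelium markers and 7 with smooth muscle markers in colon, and 2 and 0 in ileum. Without the 3 libraries that stand apart these counts were 2 and 1 in colon, where HN 1 and LF 2 were left out, and 0 and 0 in ileum, where LN 3 was left out. With diet means removed the ileum counts were 4 and 1. With 1 library left out the ileum count for epithelium was 1 to 2. It was 1 without LN 3 alone, since the adjustment over 36 relations then included all 12 colon libraries. Over the 12 colon libraries ZNRF3 fell with epithelium (r = -0.84) and rose with smooth muscle (r = 0.94), and the other genes counted went the opposite way. How many of all tested genes correlate with either marker list was not counted.

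In single omissions colon against ileum lost its call 16 times of 24 for BCL9 and CD3D, 11 for SFRP2, 9 for LEF1 and FZD10, 8 for APC, 6 for TCF7, 5 for AREG, 4 for MYC, and 2 for ROR1 and ROR2. With the replicate block AREG, BCL9, ROR2 and SFRP2 lost theirs, as did APC for LN against LF in ileum (adjusted p = 0.0624). Low counts of LGR5 (3 to 164 reads) and ASCL2 (0 to 144 reads) limit what can be seen of them.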
